A study of Gallus gallus with 8 samples.

Results

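Hypothalamic neurons make their peptide signals as large precursors that are cut, trimmed and finished inside secretory granules. PCSK2 (proprotein convertase 2) cuts precursors after pairs of basic residues, and SCG5 (also called 7B2) is the granule chaperone that PCSK2 needs in order to mature. CPE (carboxypeptidase E) then removes the basic residues left at the cut end, and PAM (peptidylglycine alpha-amidating monooxygenase) converts a terminal glycine into the amide that many neuropeptides need for activity. In the hypothalamus these proteins act on the precursors of appetite and pituitary-releasing peptides. The 4 genes were followed here at 4 ages in whole hypothalami of 2 chicken lines, one fat (FL) and one lean (LL). They were chosen by gene symbol, as every spot that the platform annotation assigns to CPE, PCSK2, PAM or SCG5, which gave 7 spots among the 19200 on the array.

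The FL groups were hypothalami taken at weeks 1, 3, 5 and 7, and the LL groups were hypothalami of the same 4 ages. Each of the 8 groups had 4 biological replicates per the series design, 1 array each, and the labels name no treatment. The label in the sample channel was Cy3, and every array carried the same Cy5-labelled pool of RNA from all the samples, so each value is a log2 ratio of sample to pool and a positive one means more transcript in the sample. The labels call the lines genotypes and give neither the sex of the birds nor whether birds were pooled. In whole hypothalamus, fewer cells of a type and less RNA per cell cannot be told apart. Of 8 neuron marker genes, 6 were measured above background, and so were 6 of 9 anterior pituitary marker genes.

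The arrays differed in quality. The median Cy3 signal over local background ran between 2.33 and 7.72 across the 32 arrays, and was lowest in FL at week 1, at 3.60 ± 0.657, against 5.52 ± 1.67 in LL at week 1 (SD, n = 4 each). Arrays numbered replicate 1 averaged 3.24, those numbered 2 averaged 3.99, and those numbered 3 and 4 averaged 5.15 and 6.28 (n = 8 each), and replicate 4 exceeded replicate 1 in 8 of 8 groups. Between 4071 and 12959 clones lay above background on an array. LL week 3 replicate 1 and FL week 7 replicate 3 stood apart: their log2 ratios correlated at -0.17 and -0.12 on average with those of the other arrays of their own groups, while the next lowest array reached 0.22. Earlier results of these data had also set FL week 1 replicate 4 apart, although it correlated at 0.40 with its group. Where a member's difference reported below changed sign or moved by over 1.5 times without these 3 arrays, the value without them is given beside it. The lowest correlation between any 2 arrays was -0.33, and the ratios kept their direction, which the dyes named in the labels set.

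The 7 spots came from 6 cDNA clones, and 5 clones could be tested. CPE had 4 spots. One clone, BG642042, gave no detected spot on any of the 32 arrays and is not described further. Clone BI389958 was above background on all 32 arrays, with Cy3 intensities between 9617 and 34931 (median 21551). Clone BI393608 was printed at 2 places. The first was above background on all 32 arrays, with Cy3 intensities between 3708 and 46165. The second was not detected on 28 arrays and above background on none. On the 3 arrays where it was satisfactory, its ratio was averaged into the clone's value. With rarely found spots left out, the clone's FL minus LL difference at week 1 was -0.56 in place of -0.55. Its week 7 mean over both lines was then 0.24 in place of 0.27. PCSK2 had clone BM491499, above background on 32 arrays, with intensities between 1188 and 14757. PAM had clone BM489653, measured on 31 arrays and above background on 30, with intensities between 728 and 6155. SCG5 had clone BI390776, above background on 30 of 32 arrays, with intensities between 1293 and 20109. Intensities depend on the spot and do not rank the genes. The authors gave a log2 ratio on 17 of the 32 arrays for PCSK2 and on 11 for PAM. They gave one on 29 for SCG5, and on 32 and 31 for CPE clones BI389958 and BI393608.

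PCSK2 is the one of the 4 proteins that cuts the precursor, and its clone was the most variable of the 5. FL arrays ran from -0.90 to 1.31 with a median of 0.45 (n = 16), and LL arrays from -0.04 to 1.32 with a median of 0.51 (n = 16). The mean log2 ratio in FL was 0.25 ± 0.54, 0.53 ± 0.24, 0.63 ± 0.26 and 0.32 ± 0.92 at weeks 1, 3, 5 and 7, and in LL it was 0.45 ± 0.19, 0.38 ± 0.37, 0.51 ± 0.18 and 0.75 ± 0.40 (SD, n = 4 each). The lines overlapped at every age. The widest spread was in FL at week 7, where the 4 arrays read 0.54, 1.31, -0.90 and 0.35, the lowest of them on replicate 3, one of the arrays that stand apart. The FL minus LL difference at week 7 was -0.42 (interval -1.04 to 0.19, adjusted p = 1.00 in limma), and -0.02 without that array.

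SCG5, the chaperone of PCSK2, showed the widest separation between the lines, and it did so at week 1. The FL arrays read -0.37, -0.16, -0.43 and -0.48 at week 1, against 0.29, 0.25, 0.08 and 0.63 on the LL arrays. All 4 FL values lay below all 4 LL values. The spot was dim on most of these FL arrays, with Cy3 intensities of 1764, 4997, 2070 and 1554. On the LL arrays they were 20109, 6645, 12176 and 7684. FL replicate 1 was not above background, at 1764 against a threshold of 1789. The fitted FL minus LL difference was -0.67 on the log2 scale (SE 0.21, 95% interval -1.11 to -0.24), a fold of 1.59 lower in FL, with an adjusted p of 0.124 in limma, so it did not pass. At week 3 the FL arrays read -0.35, 0.12, -0.37 and 0.40, against -0.69, 0.29, -0.03 and 0.54 in LL. At week 5 they read -0.12, 0.00, 0.16 and 0.37 in FL, against 0.14, 0.13, 0.25 and 0.27 in LL. At week 7 they read 0.05, 0.18, -0.73 and 0.27 in FL, against -0.12, 0.32, 0.22 and 0.19 in LL. The lines overlapped at weeks 3, 5 and 7, with fitted differences of -0.08, -0.09 and -0.21. Without the 3 arrays that stand apart the differences at weeks 3 and 7 were -0.32 and 0.01, so the sign at week 7 rested on FL replicate 3. The week 3 difference ran from -0.32 to 0.09 over the fits without 1 array, so its sign rested on single arrays too. Over the 4 ages together the FL minus LL difference was -0.26 (interval -0.48 to -0.04, adjusted p = 0.831).

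CPE, the enzyme that trims the cut ends, was represented by clones that did not follow each other. Clone BI393608 resembled SCG5 at week 1: the FL arrays read -0.05, 0.09, 0.18 and 0.02, against 0.39, 0.28, 0.48 and 1.28 in LL. Again all 4 FL values lay below all 4 LL values. The fitted difference was -0.55 (SE 0.23, interval -1.02 to -0.08, adjusted p = 0.221), and it did not pass. LL replicate 4 carried much of it, since the difference was -0.33 without that array (adjusted p = 0.583). At week 3 the FL arrays read 0.20, 0.60, -0.02 and 0.73, against -0.55, 0.52, 0.06 and 0.42 in LL. At week 5 they read 0.21, 0.05, 0.45 and 0.42 in FL, against 0.29, 0.20, 0.35 and 0.69 in LL. At week 7 they read 0.32, 0.51, -0.52 and 0.45 in FL, against 0.09, 0.36, 0.64 and 0.29 in LL. The lines overlapped at these 3 ages, with differences of 0.26, -0.10 and -0.15. Without the 3 arrays that stand apart the differences at weeks 3 and 7 were 0.04 and 0.08.

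In clone BI389958 of CPE the lines overlapped at every age. At week 1 its FL arrays read 0.02, -0.55, -0.55 and -0.66, against -0.47, -0.05, -0.39 and -0.92 in LL. At week 3 they read -0.08, -0.28, 0.05 and -0.09 in FL, against 0.07, -0.68, -0.11 and -0.23 in LL. At week 5 they read -0.03, 0.23, -0.07 and 0.01 in FL, against -0.14, -0.34, -0.17 and -0.05 in LL. At week 7 they read 0.07, 0.11, -0.40 and -0.03 in FL, against -0.06, 0.15, -0.12 and 0.21 in LL. The values were low at week 1 in both lines and nearer to 0 later. The FL minus LL differences at weeks 1, 3, 5 and 7 were 0.03, 0.14, 0.21 and -0.10. Without the 3 arrays that stand apart those at weeks 1, 3 and 7 were 0.10, 0.24 and 0.01. Over the fits without 1 array the week 1 value ran from -0.13 to 0.16, and the week 3 value from -0.01 to 0.24. The signs at weeks 1, 3 and 7 thus rested on single arrays. The difference over the 4 ages together was 0.07 (adjusted p = 0.875), and 0.14 without the 3 arrays.

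PAM, which adds the terminal amide, varied least. Its FL arrays ran from -0.29 to 0.24 with a median of -0.06 (n = 15), and its LL arrays from -0.17 to 0.25 with a median of -0.05 (n = 16). The FL means were -0.15 ± 0.17, -0.03 ± 0.12, 0.04 ± 0.19 and -0.03 ± 0.11 at weeks 1, 3, 5 and 7, and the LL means were -0.02 ± 0.12, -0.02 ± 0.19, -0.03 ± 0.13 and -0.01 ± 0.09 (SD, n = 4, but n = 3 in FL at week 5, where 1 array has no value and the fit used the other 3). No FL minus LL difference at a single age was further from 0 than -0.13, at week 1, with an interval of -0.35 to 0.09 (-0.21 without the 3 arrays). A difference of the size seen for SCG5 lies outside that interval.

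**Figure D1:**
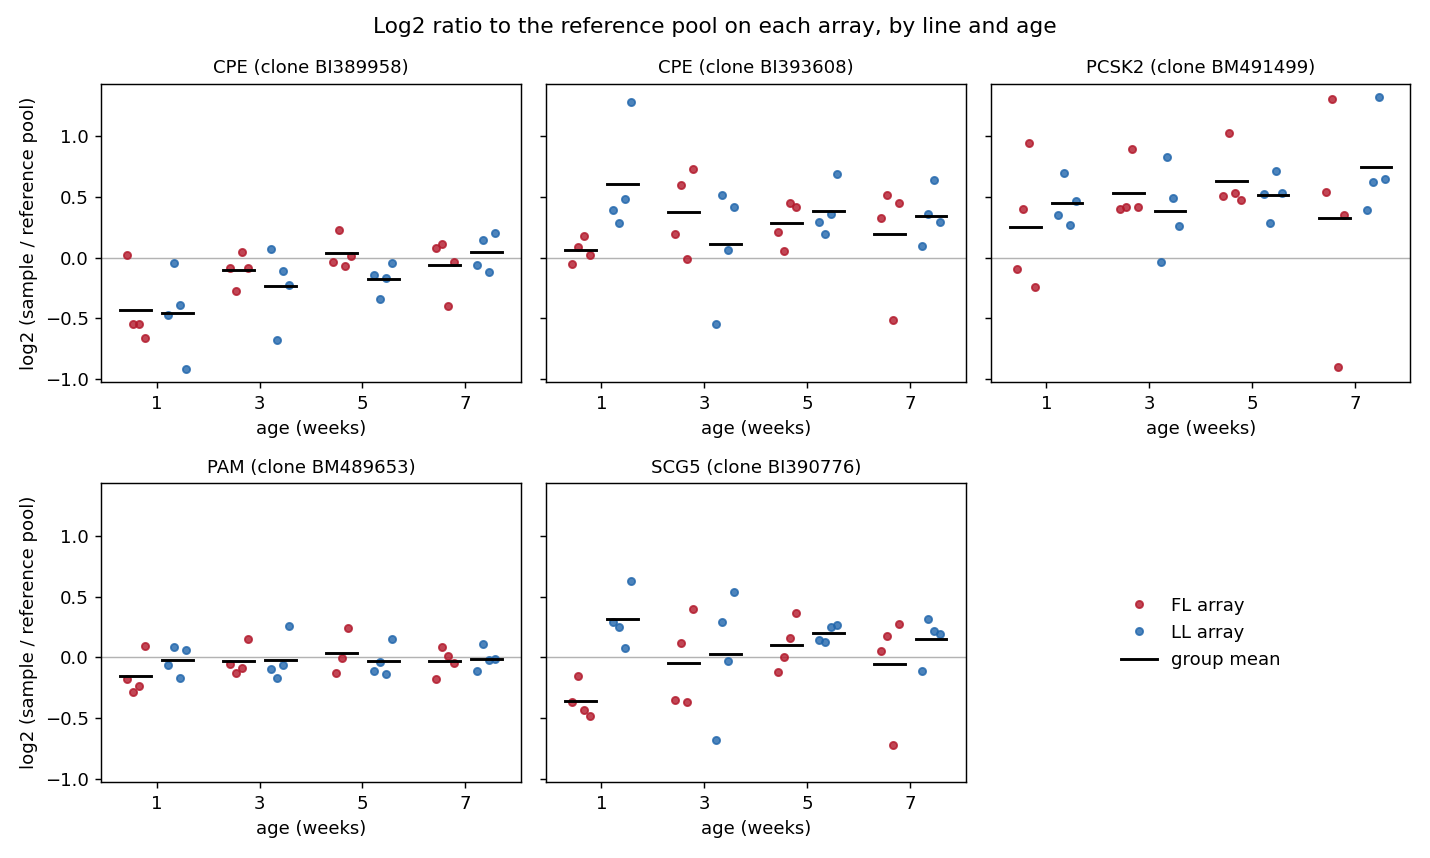
Log2 ratio of sample to reference pool (vertical axis) for the 5 clones on each of the 32 arrays, by age in weeks (horizontal axis), with FL in red left of LL in blue and the group mean as a black bar. The 4 FL points lie below the 4 LL points at week 1 for SCG5 and for CPE clone BI393608, and CPE clone BI389958 is lowest at week 1 in both lines.

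The 8 groups were also ordered by mean for each clone. SCG5 was lowest in FL at week 1 (-0.36 ± 0.14) and highest in LL at week 1 (0.31 ± 0.23, SD, n = 4 each). CPE clone BI393608 had the same extremes, at 0.06 ± 0.10 in FL and 0.61 ± 0.46 in LL (SD, n = 4 each). PCSK2 and PAM were also lowest in FL at week 1. The largest step between neighbouring groups in the order was 0.11 to 0.30 over the 5 clones. For PAM (0.12), CPE clone BI389958 (0.20) and SCG5 (0.30) it lay just above FL at week 1. For PCSK2 and CPE clone BI393608 it lay at the upper end of the order. Each largest step was smaller than the clone's own pooled SD within groups (0.14 to 0.45). That SD is a spread of single arrays and not of group means, so steps between neighbours were not tested. The median pooled SD over all clones tested was 0.21.

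The comparison of the lines asks whether the fat and lean genotypes differ in these transcripts, at one age or at all of them. With limma, 0 of the 5 clones passed an adjusted p of 0.05 at any age, over the ages together, or in the line by age interaction. At week 1, 0.345% of all 8987 clones tested passed, and 17.7% had an unadjusted p under 0.05, as 2 of the 5 did, SCG5 and CPE clone BI393608. Values of FL lay wholly below those of LL in 7.01% of all clones at week 1, and in these same 2 clones. At weeks 3, 5 and 7 none of the 5 had an unadjusted p under 0.05, 0% of all clones passed, and 2.37%, 2.77% and 3.87% of all clones had an unadjusted p under 0.05. Over the ages together 0.0445% passed, and SCG5 alone among the 5 had an unadjusted p under 0.05, as 4.96% of all clones did. In the interaction 0% passed, and none of the 5 reached an unadjusted p under 0.05 (7.12% of all clones did), so a line effect that differs between ages is not shown for any of them. All but 1 of the 5 differences at week 1 were below 0, with a median of -0.20. Over all clones the median was 0.04, and 57.9% were above 0. The clones that passed at week 1 went mostly the other way: of these 31, 3.23% were higher in FL. Of all clones, 3.00% had a difference further below 0 than SCG5, and 5.19% one further below than CPE clone BI393608.

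**Figure D2:**
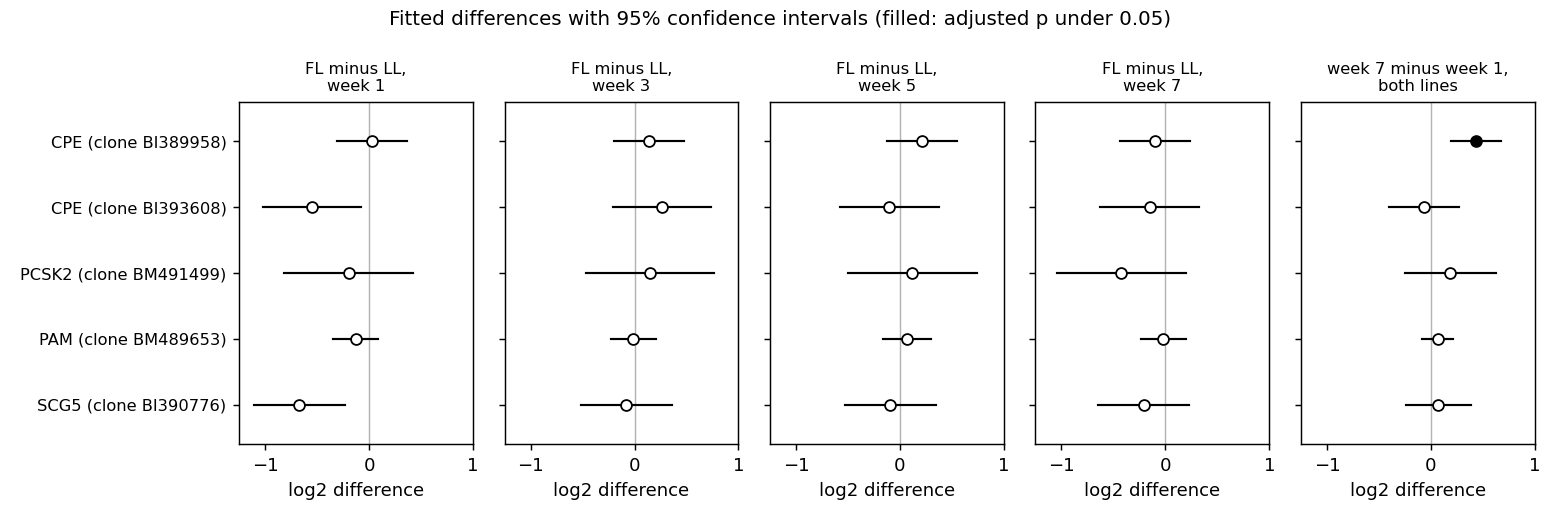
Fitted log2 differences (horizontal axis) with 95% confidence intervals for the 5 clones (rows), as FL minus LL at each age and as week 7 minus week 1 over both lines, with a filled point where the adjusted p is under 0.05. The intervals of SCG5 and CPE clone BI393608 at week 1 exclude 0 without passing adjustment, and CPE clone BI389958 in the age comparison is the only filled point.

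At week 1 the signal of the arrays and the neuron markers were also lower in FL than in LL. With each array's signal over background as a covariate, the week 1 difference of SCG5 was -0.44 (adjusted p = 0.443) and that of CPE clone BI393608 was -0.29 (adjusted p = 0.643). Without the 3 arrays that stand apart they were -0.63 (adjusted p = 0.0513) and -0.54 (adjusted p = 0.161). The 6 neuron marker genes tested were all lower in FL than in LL at week 1, with a median of -0.59. Of these, 4 had an unadjusted p under 0.05 while none passed. Over all clones 57.9% were above 0 and 17.7% had an unadjusted p under 0.05. The mean log2 ratio of the 6 genes on an array ran from -0.55 to -0.23 in FL and from 0.10 to 0.24 in LL. TUBB3, a neuronal tubulin, was at -1.05 (adjusted p = 0.0577), and ENO2, the neuronal enolase, was at -0.74 (adjusted p = 0.107). The neuron median was -0.44 with the signal covariate, and without the 3 arrays it was -0.51 with 3 of the 6 genes passing. Calls over all clones rose as well without the 3 arrays, to 149 of 8714, against 31 of 8987 in the main fit. Of these calls, 15.4% were higher in FL without the 3 arrays, and 3.23% in the main fit. Both of the 2 oligodendrocyte markers tested were also lower in FL at week 1, with a median of -0.36 and none passing. One of them, CNP, ran from -0.76 to 0.01 over the fits without 1 array. Of the 2 astrocyte markers, GFAP was at -0.11 and S100B at 0.63 (adjusted p = 0.175). The part of array signal, of neuron content and of these other cells in the SCG5 and CPE values was not tested further.

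Anterior pituitary markers, which could mark tissue taken along with the hypothalamus, were mostly higher in FL than in LL at week 1. The 6 genes tested had a median of 0.17, with 5 above 0, as 57.9% of all clones were, and none passing. The mean on an array ran from -0.15 to 0.18 in FL and from -0.38 to -0.12 in LL. CGA, the common subunit of the glycoprotein hormones, was at 0.93 (adjusted p = 0.142). GH was at 0.46, POMC at 0.22, PRL at 0.12 and FSHB at 0.05, while POU1F1 went the other way, at -0.20. The part of pituitary tissue in the week 1 values of SCG5, CPE and the neuron markers was not tested.

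The comparison of ages asks whether the transcripts change as the birds grow. CPE clone BI389958 was higher at week 7 than at week 1, the only one of the 5 clones to pass. Its mean over both lines was -0.01 ± 0.19 at week 7, against -0.45 ± 0.31 at week 1 (SD, n = 8 each), with intermediate means of -0.17 ± 0.24 at week 3 and -0.07 ± 0.16 at week 5. The week 7 minus week 1 difference was 0.44 (SE 0.12, interval 0.20 to 0.68), a fold of 1.35, with an adjusted p of 0.0400 in limma. All 8 week 7 arrays lay above the week 1 mean of their own line, although the single values of the ages overlapped. By line the difference was 0.37 in FL (interval 0.03 to 0.71, adjusted p = 0.292) and 0.50 in LL (interval 0.16 to 0.84, adjusted p = 0.432). A rise passed in 1.64% of all clones, 2.59% passed in either direction, and 18.6% had an unadjusted p under 0.05, as this clone alone of the 5 did. The call was lost without LL week 1 replicate 4, where the difference was 0.36 (adjusted p = 0.101), and in 11 of the other 31 fits that left out 1 array (adjusted p = 0.0503 to 0.0958). These were FL week 1 replicates 2, 3 and 4, FL week 7 replicates 1, 2 and 4, LL week 1 replicates 1 and 3, and LL week 7 replicates 1, 2 and 4. It was also lost when the arrays were scaled to a common spread (adjusted p = 0.0550) and when only the arrays of these ages were fitted (adjusted p = 0.151).

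The other CPE clone did not show this change. BI393608 differed by -0.06 between week 7 and week 1 (interval -0.40 to 0.27, adjusted p = 0.864), or by 0.05 without the 3 arrays that stand apart, with a mean of 0.27 ± 0.36 at week 7 and 0.33 ± 0.42 at week 1 (SD, n = 8 each). The changes of the CPE clones differed by 0.50, with a two-sided exact permutation p of 0.04 over the 4900 ways of exchanging ages within lines on 16 arrays, a test chosen after the values were seen. Without the 3 arrays that stand apart the difference was 0.41, with an exact permutation p of 0.123 over 1400 exchanges. The files do not say which part of the CPE transcript each clone covers.

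The remaining clones showed no age difference that passed. The week 7 minus week 1 differences were 0.19 for PCSK2 (interval -0.25 to 0.62), 0.06 for PAM (interval -0.09 to 0.22) and 0.07 for SCG5 (interval -0.24 to 0.38). Without the 3 arrays they were 0.31, 0.10 and 0.16. By line, the difference of SCG5 was 0.30 in FL (interval -0.13 to 0.74; 0.49 without the 3 arrays) and -0.16 in LL (interval -0.60 to 0.28). Between week 3 and week 1, CPE clone BI389958 differed by 0.28 (adjusted p = 0.322; 0.19 without the 3 arrays) and was the only clone of the 5 with an unadjusted p under 0.05, where 0.122% of all clones passed and 12% had such a p. Between weeks 5 and 3 and between weeks 7 and 5, none of the 5 clones had an unadjusted p under 0.05, against 2.01% and 1.19% of all clones, and 0% of all clones passed. Within FL, 1.29% of all clones passed between week 7 and week 1, and within LL 0.0668% did. None of the 5 passed in either line, and CPE clone BI389958 had an unadjusted p under 0.05 in both, as did 14.4% of all clones in FL and 9.21% in LL.

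**Figure D3:**
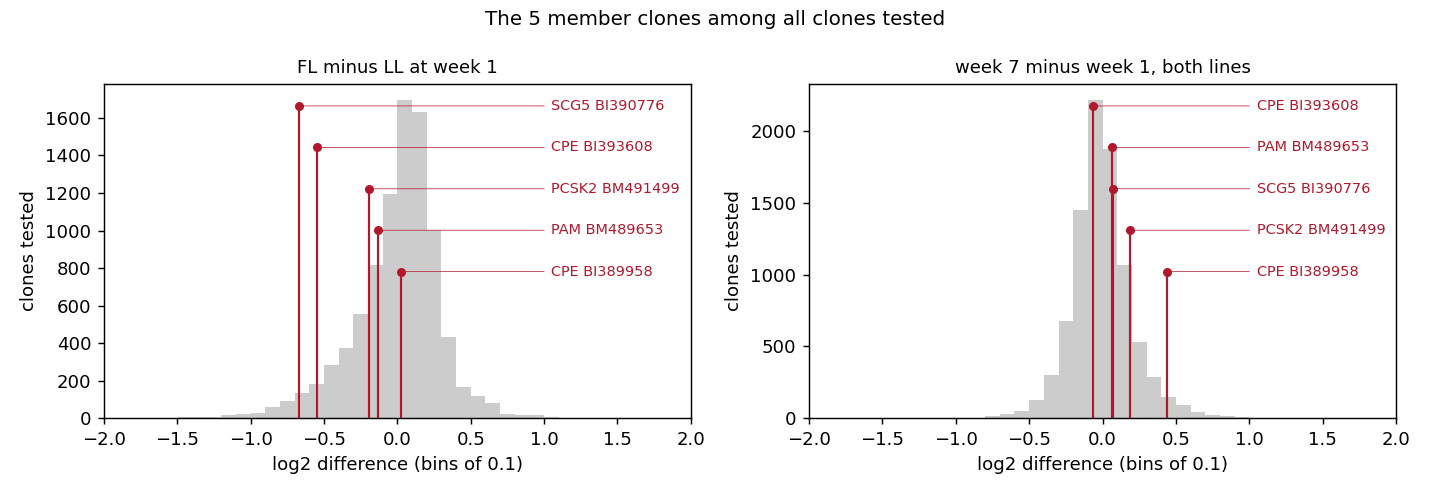
Number of clones tested (vertical axis) by log2 difference in bins of 0.1 (horizontal axis), for FL minus LL at week 1 and for week 7 minus week 1, with the 5 clones drawn as red stems whose height carries no value. SCG5 at -0.67 and CPE clone BI393608 at -0.55 stand in the lower tail of the line comparison, and CPE clone BI389958 at 0.44 in the upper tail of the age comparison.

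Markers of other cells also moved with age. HBBA, a globin of red blood cells, fell by 1.35 on the log2 scale at week 7 relative to week 1 (adjusted p = 7.57e-06), and the other globin tested, HBA1, was at -0.31 (adjusted p = 0.122). The mean of both on an array ran from -0.38 to 0.00 in FL and from -0.42 to -0.09 in LL at week 7, and from 0.39 to 1.19 in FL and from 0.34 to 0.67 in LL at week 1. TOP2A, a topoisomerase of dividing cells, fell by 1.10 (adjusted p = 0.00211). It was the only one of 4 such markers tested to pass, where 2.59% of all clones passed. The 6 neuron markers had a median difference of 0.08 with none passing. Of these, 5 were above 0 and the other below, while 45.7% of all clones were above 0. TUBB3 was at 0.31 (adjusted p = 0.369) and ENO2 at 0.30 (adjusted p = 0.313), also the direction of CPE clone BI389958. TUBB3 and ENO2 each passed in 1 other fit, with adjusted p-values of 0.0425 and 0.0481. Of 2 astrocyte markers tested, GFAP, an intermediate filament of astrocytes, was at 0.55 (adjusted p = 0.155), the same direction as CPE clone BI389958, and passed in 4 of 47 other fits, with adjusted p-values down to 0.0350. S100B was at -0.19 (adjusted p = 0.616; -0.33 without LL week 1 replicate 1). The mean of both on an array ran from -0.57 to 0.25 in FL and from -0.23 to 0.10 in LL at week 7, and from -0.68 to 0.64 in FL and from -0.71 to 0.07 in LL at week 1. The part of these cells in the CPE value was not tested.

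Among other processing enzymes and their inhibitors, 13 of 23 listed genes were on the array and 6 were tested. None passed between the lines at week 1, where 2 had an unadjusted p under 0.05, both higher in FL. Over all clones 17.7% had such a p. PCSK5, another convertase, was at 0.36 (adjusted p = 0.167), QPCTL, which forms pyroglutamate ends, was at 0.59 (adjusted p = 0.274), and PCSK1, the convertase that works alongside PCSK2 in granules, was at -0.11 (adjusted p = 0.646; 0.04 without FL replicate 1 and -0.24 without FL replicate 3). None passed between week 7 and week 1 either, where 2 had an unadjusted p under 0.05, both lower at week 7. Over all clones 18.6% had such a p. CPZ, a carboxypeptidase related to CPE, was at -0.36 (adjusted p = 0.0981) and PCSK5 at -0.22 (adjusted p = 0.207). In other fits CPZ passed 3 times, with adjusted p-values down to 0.0104, and PCSK5 passed 2 times, down to 0.0282.

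Of 23 genes for granins, granule sorting and release, 12 were on the array and 10 were tested. Between the lines at week 1 none passed and 9 of the 10 were below 0, with a median of -0.09. Over all clones 57.9% were above 0. VAMP2, a membrane fusion protein of vesicles, was at -0.61 (adjusted p = 0.144, and -0.32 without FL replicate 1). It was the only one of the 10 with an unadjusted p under 0.05, as 17.7% of all clones had. SCG3, a granin that binds granule membranes, was at 1.89 with an interval of -0.10 to 3.87, but at -0.12 without LL replicate 1, so that 1 array carried the value and its sign. KIF1A, a motor that carries dense-core vesicles, was at -0.14 (adjusted p = 0.582; -0.03 without FL replicate 2 and -0.24 without LL replicate 1). With the array signal as a covariate, 6 of the 10 were below 0 and the median was -0.07. Between week 7 and week 1 none of the 10 passed and 2 had an unadjusted p under 0.05, as 18.6% of all clones did. The 2 genes were KIF1A, at 0.22 (adjusted p = 0.205), and SORL1, a sorting receptor, at -0.28 (adjusted p = 0.221, and -0.17 without LL week 1 replicate 3). SORL1 passed in 1 other fit, with an adjusted p of 0.0470.

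The substrates were thinly covered: 9 of 40 listed neuropeptide and hormone precursors were on the array and 6 were tested. TAC1, the precursor of substance P and neurokinin A, was higher at week 7 than at week 1, by 0.26 (SE 0.06, adjusted p = 0.0232). It was the only one of the 6 to pass, where 2.59% of all clones passed. Its adjusted p was 0.0760 with the authors' ratios and 0.0982 with only the arrays of these ages. NMU, the neuromedin U precursor, was at -0.28 (adjusted p = 0.110) and CALCA, the calcitonin and CGRP precursor, at -0.20 (adjusted p = 0.132) in the same comparison. In other fits NMU passed 3 times, with adjusted p-values down to 0.0129, and CALCA passed 1 time, at 0.0376. Between the lines at week 1 none passed and 5 of 6 were above 0 (median 0.18), as 57.9% of all clones were. CALCA was at 0.24 (adjusted p = 0.234), NMU at 0.30 (adjusted p = 0.244) and POMC, the melanocortin precursor, at 0.22 (adjusted p = 0.304). Each was smaller without 1 FL array: CALCA was at 0.13 and POMC at 0.12 without replicate 2, and NMU at 0.17 without replicate 3. POMC was at 0.35 without FL replicate 1. The same POMC clone is also counted among the 6 anterior pituitary markers above, and the part of pituitary tissue in its value was not tested. With median centring CALCA was at 0.54 (adjusted p = 0.0757).

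Across the 32 arrays, CPE clone BI393608 and SCG5 followed each other most closely of all pairs of the 5 clones. Their Pearson r was 0.85 and Spearman's rho was 0.81. It was 0.88 over the 16 FL arrays and 0.86 over the 16 LL arrays, and 0.87 for deviations from group means. It was 0.81 without LL week 1 replicate 4 and LL week 3 replicate 1, the arrays farthest from the median of the CPE clone, and 0.75 without the 3 arrays that stand apart. The CPE clones had an r of -0.25 with each other, and -0.43 without these 3 arrays. PAM and SCG5 had an r of 0.43, and 0.66 without them. PCSK2 and SCG5, the enzyme and its chaperone, had an r of 0.45 over all arrays, which was 0.00 without the 3. These values are descriptions with no p, since arrays share the reference pool, the depth of signal and the normalization.

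**Figure D4:**
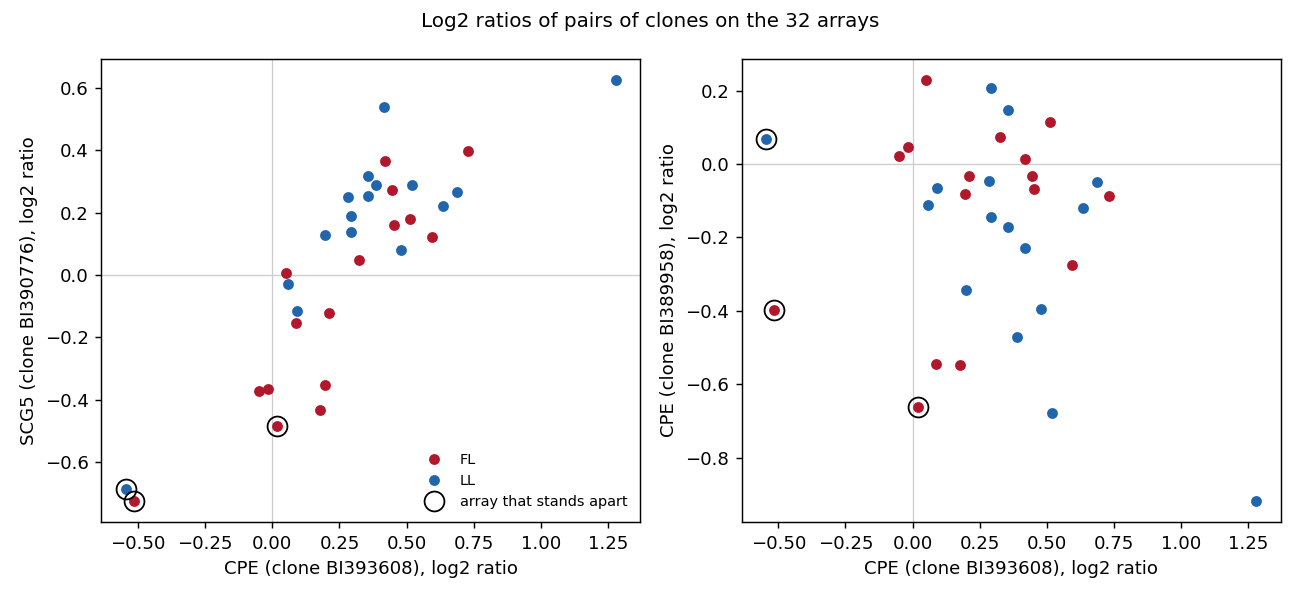
Log2 ratios on the 32 arrays of CPE clone BI393608 (horizontal axes) against SCG5 and against CPE clone BI389958 (vertical axes), with FL in red, LL in blue and the 3 arrays that stand apart ringed. SCG5 is higher where CPE clone BI393608 is higher (r = 0.85), whereas the CPE clones show no such relation (r = -0.25).

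The genes whose brightest clone was most like each of the 4 were also read out over the arrays, among 3849 named genes measured on at least 28 arrays (3781 for PAM). For SCG5 they were PDXP, ATP1B1 and YWHAG, with r of 0.94, 0.93 and 0.92. For CPE, represented by its brighter clone BI389958, they were RSRC2, OTUD7B and SFT2D1, at 0.93, 0.92 and 0.91. For PCSK2 they were SF3A2, EEF1D and PRODH, at 0.77, 0.76 and 0.75, and for PAM they were FEM1A, VPS35 and BTG2, at 0.78, 0.75 and 0.71. The median r over all genes compared lay between -0.09 and -0.02 for the 4.

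The authors' deposited table gives 1 log2 ratio for each group. It showed the same order of the lines at week 1 for the clones with a value in both. For SCG5 it lists -0.25 in FL and 0.32 in LL. For CPE clone BI393608 the authors' deposited table lists -0.03 in FL and 0.52 in LL. For CPE clone BI389958 the authors' deposited table lists -0.39, -0.15, -0.02 and -0.11 in FL at weeks 1, 3, 5 and 7, and -0.44, -0.35, -0.27 and -0.02 in LL. For PCSK2 the table lists 0.01 in FL and 0.22 in LL at week 1. At week 7 it lists 0.34 in FL, from 1 array, and 0.27 in LL, from 2 arrays. That order is the reverse of the week 7 means of 0.32 in FL and 0.75 in LL given above. For PAM the table rests on no array in 2 of the 8 groups, LL at week 1 among them.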

How the data were processed

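Hypothalamic RNA of 8 groups (FL and LL at weeks 1, 3, 5 and 7, 4 arrays each) was measured on spotted cDNA arrays with 2 dyes. The deposited array files hold, per the file headers, raw and local background intensity in each channel, quality letters, and the authors' log2 ratio of normalized Cy3 to Cy5. The scanner, the authors' normalization method and a genome build were not given in the sources used here.

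The intensities were background-corrected with limma 3.58.1 (R 4.3.3; normexp, offset 50) and normalized within each array by loess (span 0.3, 4 iterations, with the 960 empty spots at weight 0). Spots with the letters A, X, Y or Z in either channel were left out, since the file headers call these unsatisfactory. Spots of one accession were averaged to 17708 clones. A clone was above background where Cy3 minus local background exceeded the 95th percentile of the detected empty spots, and was tested if this held on at least 3 of 4 arrays of a group and every group had at least 2 values (8987 clones). One model with 8 group means was fitted to all 32 arrays with lmFit and eBayes, and p-values were adjusted by Benjamini and Hochberg over all clones tested. The script was tested on simulated data.

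The authors' deposited table of log2 ratios per group orders its spot names differently from the array files. Its values equalled means of array values by place in 64503 of 64503 cases (within 0.005) and by name in 1775 of 30053. Under the array files' names the empty spots were dim (median log2 Cy3 7.72), and under the table's names they were not (9.97, against 10.8 over all spots), so the array files' names were used. Gene symbols come from the platform's annotation, which names 10478 spots. All 4 genes were found in the RefSeq gene table.

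The genes, the lists and the alternatives were chosen with earlier results of these data known. Named genes are every clone of the 4 genes, the 3 genes most like each of them, and per list at most the 3 genes with the smallest p and any that passed. For the anterior pituitary list at week 1, all 6 genes tested are named. The number of arrays limits the precision. Replicate numbers come from the file names only.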

Additional observations from a re-analysis of the deposited data

Results flagged for a closer look

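In 3 of the 39 groups of 4 arrays looked at over the 5 clones, 1 array lay far from the other 3 of its group, by the gap to its nearest neighbour over the group's range. Chance gives such a value in about 1 of 20 groups. CPE clone BI389958 was at 0.023 on FL week 1 replicate 1, against -0.66 to -0.55 on the other 3. PCSK2 was at 0.89 on FL week 3 replicate 3, against 0.40 to 0.42 on the other 3. PCSK2 was also at 1.02 on FL week 5 replicate 2, against 0.47 to 0.53 on the other 3. None of these is one of the 3 arrays that stand apart.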

How the results depend on the processing

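The count of member clones passing was 0 in every line comparison, in the interaction and in the other age comparisons under all alternatives and all 32 fits without 1 array. With the authors' ratios PCSK2 and PAM lacked 2 values in some group, so they were not tested and could not pass there. Only the count for week 7 against week 1 moved. It was 0 in place of 1 with scaling between arrays, with median centring in place of loess, with no filter on dim clones, with only the arrays of the groups compared, and with a background threshold of the median plus 3 MAD (added after seeing the data), and it ran from 0 to 1 over the fits without 1 array. The adjusted p of CPE clone BI389958 was 0.0550, 0.178, 0.0584, 0.151 and 0.0531 in these settings. It passed in the other 10 of 15 settings, the authors' ratios included (0.0297), and in 20 of 32 fits without 1 array, and its log2 difference ran from 0.35 to 0.51 over all. TAC1 lost its call in 7 of these fits, 3 of them without 1 array (FL week 1 replicate 2, 0.0667; FL week 7 replicates 1 and 2, 0.0555 and 0.0545), with the highest adjusted p of 0.253 under median centring. TOP2A lost it in 1 (only the arrays compared, 0.0528). The week 1 line difference of CPE clone BI393608 ran from -0.56 to -0.29 over the settings. The cause of these shifts was not tested.

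With the replicate number as a block (replicate block), the count was again 1 (CPE clone BI389958, adjusted p = 0.0413), SCG5 at week 1 had an adjusted p of 0.0573, and no member's call changed. Arrays of the same number in different groups correlated at 0.092 on average (112 pairs, 50 of them over 0.1). For different numbers the average was -0.029 (336 pairs, 86 of them over 0.1). These correlations use another measure than those between arrays given above: single pairs here reached -0.57, against a lowest of -0.33 there. Not every pair was over 0.1, and the main fit was left without the block. That rule cannot decide whether arrays of the same number share a component. LL week 3 replicate 1 and FL week 7 replicate 3 correlated below 0 even with their own groups. Array signal was also higher for number 4 than for number 1 in 8 of 8 groups. With the block the counts over all clones were 45 for the lines at week 1 and 317 for week 7 against week 1, in place of 31 and 233.

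Over all clones, the count passing for week 7 against week 1 was 233 and ran from 28 (only the arrays compared) to 961 (array weights). For the lines at week 1 it was 31 and ran from 0 (array signal as covariate) to 149 among the settings, and from 3 to 245 over the fits without 1 array. Of the calls for week 7 against week 1, 63.1% were higher, and 78.9% with median centring, 47.1% with the authors' ratios (310 calls), 53.4% with no background subtraction and 53.1% with the stricter filter. Other counts: week 3 against week 1, 11 (2 to 176); FL week 7 against week 1, 116 (1 to 528); LL week 7 against week 1, 6 (2 to 49); interaction, 0 (0 to 35); line across ages, 4 (0 to 5); week 5 against week 3, 0 (0 to 2). Median centring moved the median of all clones in the line comparison at week 1 to 0.10, against 0.04. SCG5 was not above background on 2 arrays, nor PAM on 1 of the 31 that measured it.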
